A study of Mus musculus and Acomys cahirinus with 18 samples.

Results

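The matrix metalloproteinase and TIMP genes described here are 10 genes, taken as every entry with 1 of these symbols in 4 tables of the authors' own comparisons. They are the protease genes Mmp2, Mmp3, Mmp7, Mmp9, Mmp12, Mmp13 and Mmp14 and the inhibitor genes Timp1, Timp2 and Timp3. The tables hold 6384 different symbols in all. All 10 genes appear in at least 1 table, 3 of them on Acomys day 2, 4 on Acomys day 5, 6 on mouse day 2 and 9 on mouse day 5.

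The study obstructed the left ureter of adult male animals of 2 species, the spiny mouse Acomys cahirinus and the laboratory mouse, and sequenced kidney RNA, with 3 libraries in each of 6 groups. The Acomys groups were wild type kidneys on day 2 of unilateral ureteral obstruction (UUO; 10.3 to 14.3 weeks old), on day 5 of UUO (9.9 to 10.4 weeks) and after a sham operation (9.9 to 14.3 weeks). The mouse groups were wild type C57BL/6 kidneys on day 2 of UUO (10.1 weeks), on day 5 of UUO (10.1 to 14 weeks) and after a sham operation (7 to 14 weeks). UUO blocks the outflow of urine, so that the tubules are stretched and injured and the kidney is scarred in laboratory mice. Both obstructed groups of a species were compared with the same 3 sham libraries, and the labels do not say that every library is a separate animal, so the authors' FDRs measure the spread between libraries.

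Matrix metalloproteinases are zinc-dependent enzymes that cut collagens, other matrix proteins and many cell surface proteins. They are made as inactive proenzymes, and TIMP proteins block the active enzymes by binding in the catalytic cleft. In the kidney they are known from basement membrane turnover, tubule injury and scarring, where both proteases and inhibitors can be induced.

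All fold changes are obstructed over sham on the log2 scale that edgeR writes, a base that the tables do not state. An entry is listed only when its false discovery rate (FDR) in edgeR is under 0.05. A missing gene can be one that did not change, one whose libraries varied too much or one left out of the fit, and in Acomys it may also sit among the loci without a symbol, 644 on day 2 and 1094 on day 5. The tables give no values per library, so single kidneys, the spread within a group, overlap between groups and sequencing depth cannot be shown. Since a p-value is never above its FDR, an approximate upper limit for the standard error was taken as the fold change over the z value of its FDR. The 95% intervals below come from that limit, so they tend to be too wide. RNA came from kidney tissue, in which more cells of a type and more RNA per cell cannot be told apart.

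The upstream sequences of 4 of the mouse genes are shown, 3 because they carry the letters best known from regulation of this family and Timp1 because it carries neither motif. The capitals mark TGANTCA, the consensus of the AP-1 (Fos and Jun) transcription factors, and TATAAA, the TATA box, each searched on both strands with no overlap between matches. Each run holds the 250 bases before the annotated start, 5′ to 3′ on the plus strand, from RefSeq on build GRCm38.p6, at chr9:7445572-7445821 for Mmp3, chr9:7691840-7692089 for Mmp7, chr9:7272264-7272513 for Mmp13 and chrX:20869916-20870165 for Timp1.
Mmp3: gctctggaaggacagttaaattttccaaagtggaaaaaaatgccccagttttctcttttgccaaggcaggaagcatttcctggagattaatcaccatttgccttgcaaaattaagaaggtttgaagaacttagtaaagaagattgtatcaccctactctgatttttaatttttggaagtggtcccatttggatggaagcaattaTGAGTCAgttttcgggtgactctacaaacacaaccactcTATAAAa
Mmp7: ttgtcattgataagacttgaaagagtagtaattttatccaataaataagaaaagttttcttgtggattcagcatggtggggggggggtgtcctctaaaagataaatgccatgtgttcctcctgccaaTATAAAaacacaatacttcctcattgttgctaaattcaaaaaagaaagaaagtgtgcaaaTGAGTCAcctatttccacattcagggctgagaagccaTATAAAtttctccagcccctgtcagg
Mmp13: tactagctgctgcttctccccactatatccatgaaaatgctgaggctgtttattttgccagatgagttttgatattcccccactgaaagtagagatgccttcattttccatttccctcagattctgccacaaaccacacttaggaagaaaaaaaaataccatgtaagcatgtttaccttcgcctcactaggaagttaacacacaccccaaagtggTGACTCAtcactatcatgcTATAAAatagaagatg
Timp1: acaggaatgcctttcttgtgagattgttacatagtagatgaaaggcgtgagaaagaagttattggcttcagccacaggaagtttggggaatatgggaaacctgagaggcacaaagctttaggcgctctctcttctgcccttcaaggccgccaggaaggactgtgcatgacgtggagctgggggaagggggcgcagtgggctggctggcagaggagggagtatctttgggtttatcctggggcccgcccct

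Promoter windows, reaching from 250 bases before to 50 bases after a start, were found for 8 of the 10 genes. Mmp3, Mmp7, Mmp12 and Mmp13 held both motifs in a window, and Mmp14, Timp1, Timp2 and Timp3 held neither. Among all 32851 mouse promoter windows 7.81% held TGANTCA and 13.6% held TATAAA. Counted by gene, 2425 of 27025 held TGANTCA in a window and 4234 held TATAAA. The share that held both was not counted. The AP-1 match began 46 bases before the start in Mmp3, 63 in Mmp7, 44 in Mmp12 and 35 in Mmp13. A variant of the AP-1 consensus, TGAGTAA, was looked for after the Timp1 sequence had been seen. It lies 26 bases after the annotated Timp1 start and occurs in 2.68% of all windows. These matches describe the letters only. The 4 genes with the consensus did not share a direction, since Mmp13 fell in mouse on day 2 while the other three are risen entries there or on day 5.

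In Acomys 3 of the 10 genes rose on day 2 (Mmp9, Mmp14 and Timp1), 0 fell and 7 were not listed, in a table where 89.9% of all 1765 entries rose and 10.1% fell. On day 5 the count was 4 risen (Mmp2 joining them), 0 fallen and 6 not listed, beside 78.6% risen and 21.4% fallen among 2500 entries. In mouse 5 rose on day 2 (Mmp3, Mmp7, Mmp9, Mmp14 and Timp1), 1 fell (Mmp13) and 4 were not listed, where 58.3% of 3915 entries rose and 41.7% fell. On mouse day 5 there were 8 risen, 1 fallen (Timp3) and 1 not listed, beside 60.9% risen and 39.1% fallen among 5365 entries. How many genes the authors tested is not known from the files, and these shares are of listed entries. The median fold change of the listed genes was 3.02 on Acomys day 2, 3.78 on Acomys day 5, 3.19 on mouse day 2 and 3.12 on mouse day 5. Over all entries of the same tables, rises and falls together, the medians were 1.99, 1.95, 1.03 and 1.14 in that order. Among rises alone the medians were 3.02, 3.78, 3.57 and 3.20 for the listed genes, beside 2.15, 2.27, 1.70 and 1.89 for all entries.

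**Figure D1:**
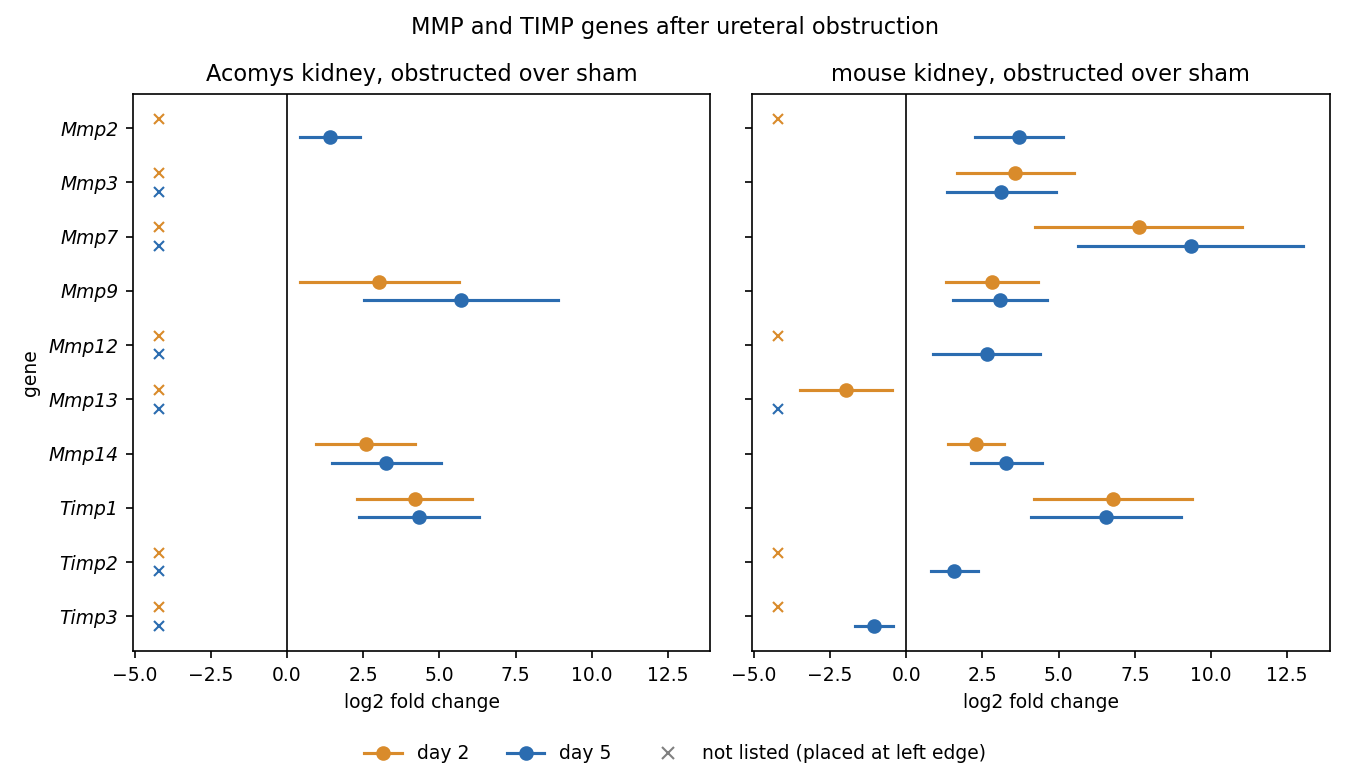
Log2 fold change, obstructed over sham, of the 10 genes in Acomys (left) and mouse (right) on day 2 (orange) and day 5 (blue), with lines for the 95% interval from the upper limit of the standard error. Crosses at the left edge stand for genes that are not listed; Acomys has 7 of them on day 2 and 6 on day 5, mouse 4 and 1.

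Mmp9 encodes gelatinase B, which cuts denatured collagen and basement membrane collagen and is carried by neutrophils and macrophages. On Acomys day 2 it stood at 3.02 (FDR 0.023) in the authors' deposited table, which is 8.14 times sham, with a 95% interval of 0.42 to 5.63. On Acomys day 5 the authors' deposited table held it at 5.71 (FDR 0.00046), 52.2 times sham, with an interval of 2.51 to 8.90. It was the highest of the listed protease genes here in Acomys on both days. For mouse, the authors' deposited tables gave 2.81 on day 2 (FDR 0.00029) and 3.08 on day 5 (FDR 8.5e-05), or 7.00 and 8.45 times sham. Day 5 exceeded day 2 by 2.68 in Acomys and by 0.27 in mouse, on the log2 scale, a step that was not tested because both days share their sham libraries.

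The tables also give the mean expression of a gene over all libraries of the fit, as the log2 of its reads scaled to library size (logCPM). Per the authors' deposited tables Mmp9 had a mean of 4.97 in Acomys and 1.37 in mouse. The tables were normalized separately in each species, so these means are not a comparison of levels. With equal weight for the 3 groups, that mean and the fold changes imply about 12.5 CPM (read counts scaled to library size, not logged) on day 2, 80.2 on day 5 and 1.54 in sham for Acomys Mmp9, without an error. The same arithmetic gives 3.30 CPM on day 2, 3.98 on day 5 and 0.471 in sham for mouse Mmp9.

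Mmp2 encodes gelatinase A, a product of fibroblasts and other stromal cells whose proenzyme is activated at the cell surface by MMP14 together with TIMP2. It was listed on day 5 in each species and on day 2 in neither. In the authors' deposited table for Acomys day 5 it stood at 1.41 (FDR 0.0053), 2.65 times sham, with an interval of 0.42 to 2.40. Its mouse day 5 value in the authors' deposited table was 3.70 (FDR 6.2e-07), 13.0 times sham, with an interval of 2.24 to 5.15. Among entries within 0.5 of its mean expression, the smallest listed rise on day 2 was 1.07 in Acomys (160 rises) and 0.75 in mouse (297 rises). The median listed rise among them was 1.71 in Acomys and 1.48 in mouse. A change of the day 5 size thus lay within the range that was listed on day 2, though in Acomys below that median. The spread of Mmp2 on day 2 is not known, so a rise of that size could have gone unlisted.

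Mmp14 encodes a membrane-bound collagenase that also activates pro-MMP2. Its values in the authors' deposited tables were 2.58 on day 2 (FDR 0.0018) and 3.25 on day 5 (FDR 0.00036) in Acomys, 5.99 and 9.53 times sham. For mouse they were 2.29 on day 2 (FDR 8.2e-07) and 3.28 on day 5 (FDR 3.8e-08) in the authors' deposited tables, 4.91 and 9.70 times sham. It was a risen entry in all 4 tables. The implied levels were 44.0 CPM on day 2, 70.0 on day 5 and 7.34 in sham for Acomys, and 102 CPM on day 2, 202 on day 5 and 20.8 in sham for mouse.

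Mmp7 encodes matrilysin, a small protease of epithelial cells that is known as a tubule product in injured kidneys. The authors' deposited table placed it at 7.62 on mouse day 2 (FDR 1.2e-05), rank 11 of 2282 rises, with an interval of 4.21 to 11.03. The authors' deposited table placed it at 9.33 on mouse day 5 (FDR 7.6e-07), rank 2 of 3269 rises, with an interval of 5.64 to 13.03. These are 197 and 645 times sham. The implied levels were 2.67 CPM on day 2, 8.74 on day 5 and 0.0135 in sham. At so low a sham level the size of a fold change depends on the small count that edgeR adds to each library, whose setting is not known here. Mmp7 was not listed on either day in Acomys.

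Mmp3 encodes stromelysin-1, a stromal protease that cuts proteoglycans and fibronectin and activates other proenzymes. Mouse values in the authors' deposited tables were 3.57 on day 2 (FDR 0.00027) and 3.12 on day 5 (FDR 0.00058), or 11.9 and 8.70 times sham. It was the only 1 of the 4 protease genes listed on both mouse days whose value was lower on day 5, by 0.45 on the log2 scale. Its implied levels were 4.31 CPM on day 2, 3.15 on day 5 and 0.362 in sham. In Acomys it was not listed.

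Mmp12, the elastase gene of macrophages, was listed once. The authors' deposited table for mouse day 5 gave 2.63 (FDR 0.0033), 6.20 times sham, with an interval of 0.88 to 4.39. On mouse day 2 the smallest listed rise within 0.5 of its mean expression was 1.01 among 221 rises, so that a rise of its day 5 size was within the listed range there.

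Mmp13, the collagenase-3 gene, was the only protease gene of the 7 that fell. On mouse day 2 the authors' deposited table held it at -1.97 (FDR 0.011), 0.256 times sham, with an interval of -3.48 to -0.46 and a mean logCPM of -0.54. The fall is not called at FDR under 0.01, and Mmp13 was not listed on mouse day 5 or in Acomys.

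**Figure D2:**
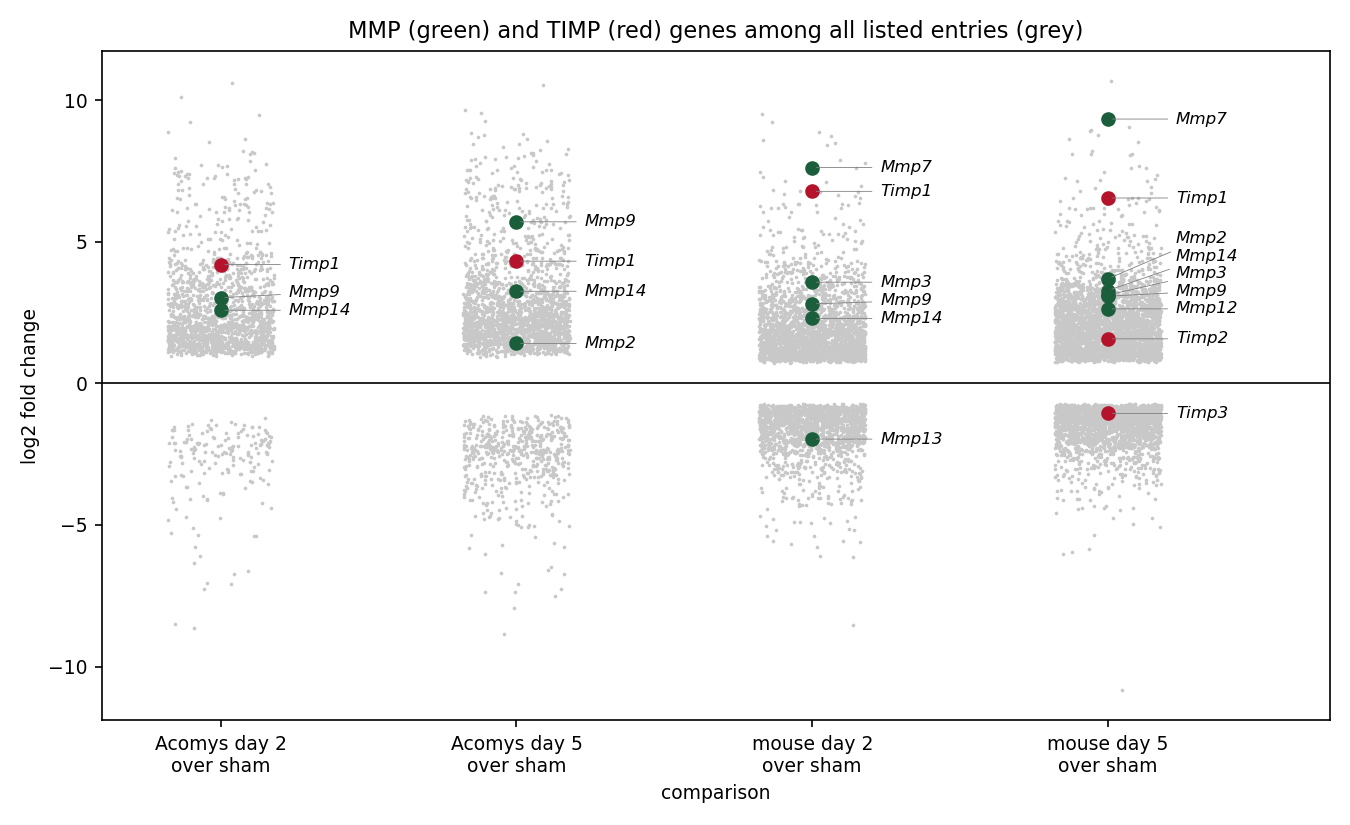
Log2 fold change (y axis) of every listed entry (grey points) in the 4 comparisons (x axis), with the listed protease genes in green and inhibitor genes in red. Mmp7 sits at 7.62 and 9.33 in mouse, near the top of its columns, and the gap around 0 is where entries short of the threshold are missing.

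Timp1 encodes a secreted inhibitor of most matrix metalloproteinases that is strongly inducible by cytokines and growth factors. In the authors' deposited tables for Acomys it stood at 4.20 on day 2 (FDR 1.3e-05) and 4.32 on day 5 (FDR 1.7e-05), which is 18.3 and 19.9 times sham. Mouse Timp1 stood at 6.78 on day 2 (FDR 2.7e-07) and 6.55 on day 5 (FDR 1.8e-07) in the authors' deposited tables, which is 110 and 93.4 times sham. The rise was present on both days in each species, and day 5 minus day 2 came to 0.12 in Acomys and -0.23 in mouse. It ranked 202 of 1587 rises on day 2 and 267 of 1964 on day 5 in Acomys, against 18 of 2282 and 32 of 3269 in mouse. Implied levels were 69.8 CPM on day 2, 75.8 on day 5 and 3.81 in sham for Acomys, and 51.6 CPM on day 2, 43.9 on day 5 and 0.469 in sham for mouse.

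Timp2, which inhibits the gelatinases and is also needed to activate pro-MMP2, was listed only on mouse day 5 among the 4 tables. The authors' deposited table gave 1.57 (FDR 7.0e-05), 2.98 times sham, with an interval of 0.80 to 2.35. Within 0.5 of its mean expression the smallest listed rise on mouse day 2 was 0.75, among 196 rises.

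Timp3 encodes the inhibitor that binds to the matrix and also blocks ADAM17, and it moved the other way. The authors' deposited table for mouse day 5 held it at -1.06 (FDR 0.00087), 0.479 times sham, with an interval of -1.69 to -0.44. It ranked 1515 of 2096 falls by size, and it was not listed on mouse day 2 or in Acomys. On mouse day 2 entries of like mean expression were listed from a fall of 0.83 onward, among 19 falls with a median size of 1.36.

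Set against Timp1 in the same table, the protease genes mostly rose less. In Acomys Mmp9 lay 1.17 below Timp1 on day 2 (difference -1.17) and above it on day 5 (1.39). In mouse the difference for Mmp9 was -3.97 on day 2 and -3.47 on day 5. Mmp14 lay below Timp1 in all 4 tables, at -1.61 and -1.06 in Acomys and at -4.49 and -3.27 in mouse on days 2 and 5. Mmp7 lay above Timp1 in mouse, by 0.84 on day 2 and 2.79 on day 5. These are differences of fold changes within a table, not ratios of protein or of activity, and they were not tested.

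The response of the species was compared for the genes listed in both, as Acomys minus mouse log2 fold change. The test was a two-sided normal approximation on the upper limits of the standard errors, with Benjamini-Hochberg adjustment over all 729 symbols listed in both on day 2 and all 1011 on day 5. It called 3.43% of these symbols on day 2 (2.88% higher and 0.549% lower in Acomys) and 3.56% on day 5 (2.57% higher and 0.989% lower in Acomys). Of the 10 genes 3 could be tested on day 2 and 4 on day 5, and it called 0 of them on either day. For a given FDR the upper limit grows with the size of a fold change. The test therefore had little power for genes that rose in both species, as all of these did. A count of 0 thus does not show a like response. At an unadjusted p under 0.05 the counts were 0 on day 2 and 1 on day 5, Mmp2, beside 8.37% of all symbols on day 2 and 8.41% on day 5.

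Timp1 rose in both species, and its Acomys minus mouse difference was -2.58 on day 2 (95% interval -5.78 to 0.62, adjusted p = 0.836) and -2.23 on day 5 (-5.38 to 0.92, adjusted p = 0.888). With a t distribution of 6 residual degrees of freedom per species in place of the normal one, the adjusted p was 0.00138 on day 2 and 0.00486 on day 5. That setting also divides each fold change by the larger t value of its FDR, which makes the standard errors smaller. It is therefore not the more cautious setting. Over all alternatives it ranged from 0.00138 to 0.862 on day 2 and from 0.00486 to 0.946 on day 5. Mmp2 on day 5 differed by -2.29 (interval -4.05 to -0.53, adjusted p = 0.210). That became 0.00187 with the t distribution, and 0.0411 when the standard error was rebuilt from the rank of each FDR with 20000 assumed tests, in a range of 0.00187 to 0.338 over all alternatives. Mmp9 differed by 0.22 on day 2 (interval -2.80 to 3.23, adjusted p = 0.984) and by 2.63 on day 5 (-0.92 to 6.17, adjusted p = 0.881). Mmp14 differed by 0.29 on day 2 (interval -1.58 to 2.15) and by -0.03 on day 5 (-2.16 to 2.11). The intervals of Mmp9 and Mmp14 include 0 but are wide, so that a like response was not shown.

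**Figure D3:**
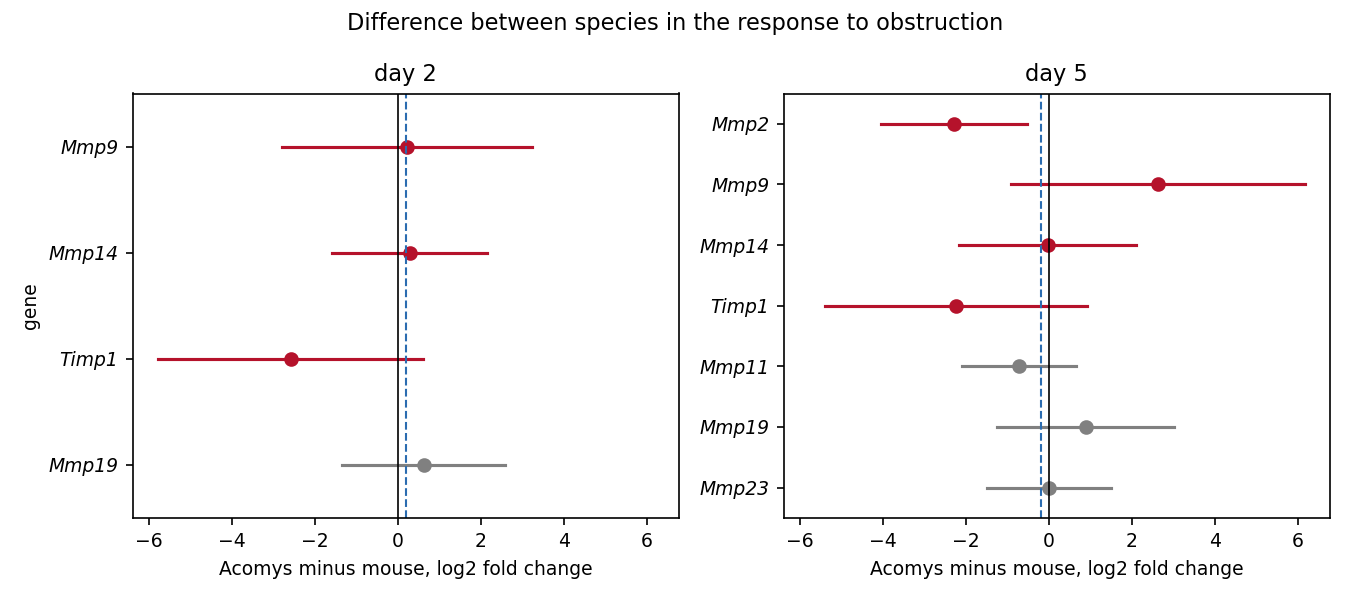
Acomys minus mouse difference of log2 fold change (x axis) for each gene listed in both species on day 2 (left) and day 5 (right), with 95% intervals from the upper limit of the standard error. The 10 genes are in red, other family members in grey, and the dashed line is the median of all symbols listed in both (0.20 on day 2, -0.18 on day 5); the day 5 interval of Mmp2 is the only one that does not cross 0.

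The other 17 genes of the family held 1 rise on Acomys day 2, 3 on Acomys day 5, 5 on mouse day 2 and 8 on mouse day 5, with 0 falls in any table. Of all entries 10.1%, 21.4%, 41.7% and 39.1% fell, in that order. Mmp19 rose in all 4 tables, at 2.39 on day 2 and 3.26 on day 5 in Acomys and at 1.77 and 2.36 in mouse in the authors' deposited tables. Mmp11, stromelysin-3, stood on day 5 at 1.31 in Acomys and 2.02 in mouse in the authors' deposited tables. Mmp23 stood on day 5 at 1.84 in Acomys and 1.83 in mouse, and at 0.95 on mouse day 2, in the authors' deposited tables. The species test, weak for genes that rose in both species, called 0 of these 3 genes. Their day 5 intervals were -1.24 to 3.03 for Mmp19, -2.09 to 0.66 for Mmp11 and -1.49 to 1.502 for Mmp23. In mouse Mmp24, a membrane-type enzyme, stood at 2.45 on day 2 and 4.43 on day 5 in the authors' deposited tables. Mmp27 and Mmp20, the enamel protease, stood at 4.42 and 4.08 on mouse day 2 and at 3.66 and 4.24 on mouse day 5 in the authors' deposited tables, at mean logCPM of -0.67 and -2.32. Mmp17 (1.32) and Mmp25 (1.45) joined on mouse day 5 in the authors' deposited table.

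Mouse Mmp13, Mmp12, Mmp1b, Mmp3, Mmp1a, Mmp10, Mmp8, Mmp27, Mmp20 and Mmp7 follow each other in that order among the family genes of chromosome 9 in RefSeq. Of these 10, 6 were listed in mouse on either day and 0 in Acomys. Of the 17 family genes on other chromosomes, 12 were listed in mouse and 7 in Acomys. Of all symbols, 729 were listed in both species on day 2, beside 3915 mouse entries, and 1011 on day 5, beside 5365. Most mouse entries of any kind were thus not listed in Acomys on the same day. The 6 chromosome 9 genes had low mean logCPM in mouse, from -2.32 (Mmp20) to 1.93 (Mmp7). The family genes listed in Acomys began at 1.49 (Mmp19). Genes outside the family were listed in Acomys at lower means, such as Fosl1 at -0.56 in the authors' deposited tables. Acomys also had fewer listed entries, 1765 and 2500 against 3915 and 5365 in mouse. Levels of the chromosome 9 genes in Acomys are not known, and the part of low expression was not tested. The Acomys loci carry names and mouse symbols that the authors assigned, and how reads of close paralogues were divided there is not known, which leaves values of single family members in Acomys uncertain.

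Of 15 genes of the plasminogen system and other regulators of these proteases, 8 rose and 0 fell on Acomys day 2, and 8 rose and 1 fell on Acomys day 5. In mouse 5 rose and 2 fell on day 2, and 8 rose and 1 fell on day 5. The listed genes had medians of 1.76 and 2.01 in Acomys and 1.16 and 2.39 in mouse on days 2 and 5. Over all entries the medians were 1.99 and 1.95 in Acomys and 1.03 and 1.14 in mouse. Of all entries 89.9% and 78.6% rose in Acomys, and 58.3% and 60.9% in mouse. A2m, the broad protease trap alpha-2-macroglobulin, stood at 3.56 on day 2 and 4.27 on day 5 in Acomys and at 4.45 and 2.75 in mouse in the authors' deposited tables. Plaur, the urokinase receptor, stood at 2.38 on day 2 and 2.58 on day 5 in Acomys and at 3.80 and 3.22 in mouse in the authors' deposited tables. Serpine2, the serine protease inhibitor nexin, stood at 2.34 on day 2 and 3.02 on day 5 in Acomys and at 2.39 on mouse day 5 in the authors' deposited tables. Cd44, a hyaluronan receptor that can hold MMP9 at the cell surface, stood at 1.85 on day 2 and 2.51 on day 5 in Acomys and at 4.44 and 6.38 in mouse in the authors' deposited tables. Plau, urokinase, fell by 1.78 on Acomys day 5 (FDR 0.031) in the authors' deposited table. Plg, plasminogen, fell by 3.52 on mouse day 2 in the authors' deposited table, at a mean logCPM of -2.04, and the antiplasmin gene Serpinf2 fell by 0.94 on day 2 and 1.13 on day 5 there.

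Among 20 genes for matrix proteins that these enzymes can cut, 11 rose and 0 fell on Acomys day 2, 13 and 0 on Acomys day 5, 12 and 2 on mouse day 2 and 14 and 2 on mouse day 5. Of all entries 89.9%, 78.6%, 58.3% and 60.9% rose, in that order. The fibrillar collagen gene Col1a1 stood at 4.54 and 4.71 in Acomys and at 3.76 and 4.23 in mouse on days 2 and 5 in the authors' deposited tables. The basement membrane collagen genes Col4a3 and Col4a4 fell in mouse, to -1.32 and -1.15 on day 2 and -1.59 and -1.37 on day 5 in the authors' deposited tables. Col4a1 and Col4a2, also of basement membrane, rose in mouse, to 1.63 and 1.25 on day 2 and 2.08 and 1.81 on day 5 in the authors' deposited tables. In Acomys they stood at 1.98 and 1.39 on day 2 and 2.22 and 1.73 on day 5 in the authors' deposited tables.

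Of 21 genes for transcription factors and cytokines known to induce metalloproteinase genes, 5 rose on Acomys day 2, 10 on Acomys day 5, 19 on mouse day 2 and 19 on mouse day 5, with 1 fall, Etv5 on mouse day 2. Over all entries, 1587 of 1765 and 1964 of 2500 rose in Acomys, and 2282 of 3915 and 3269 of 5365 in mouse. Fewer genes were thus listed in Acomys, where a gene may also lack a symbol, so the counts do not compare the species. Fosl1, an AP-1 subunit, stood at 3.41 and 2.98 in Acomys and at 7.89 and 7.60 in mouse on days 2 and 5 in the authors' deposited tables. Fos stood at 2.89 and 3.62 in Acomys and at 2.88 and 2.12 in mouse in the authors' deposited tables. Il1b, the cytokine interleukin-1 beta, stood at 2.44 and 3.35 in Acomys and at 2.02 and 2.57 in mouse in the authors' deposited tables. Runx1 stood at 2.43 on Acomys day 5 and at 3.51 and 4.06 in mouse in the authors' deposited tables.

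Markers of the cells that can make these proteases moved as well. Of 12 macrophage markers 9 rose on Acomys day 2, 12 on Acomys day 5, 11 on mouse day 2 and 11 on mouse day 5, with medians of 2.38, 2.75, 2.28 and 3.61 in that order. Of 11 neutrophil markers 1 and 2 rose in Acomys and 3 and 3 in mouse on days 2 and 5, and the others were not listed. Ltf, lactoferrin, stood at 6.22 and 6.86 in Acomys, and Csf3r at 2.27 on Acomys day 5, in the authors' deposited tables. In mouse the authors' deposited tables gave 3.98 and 3.10 for S100a9, 2.93 and 2.11 for S100a8 and 2.01 and 2.64 for Csf3r. The granule genes Elane and Mpo were among the markers listed in neither species. Of 10 fibroblast and myofibroblast markers 8 and 8 rose in Acomys, and 6 and 10 in mouse. Proximal tubule markers fell in 0 and 1 of 12 cases in Acomys and in 11 and 12 of 12 in mouse. Over all entries, 178 of 1765 and 536 of 2500 fell in Acomys, and 1633 of 3915 and 2096 of 5365 in mouse, and the rest rose. With so few falls listed in Acomys, and loci without a symbol there, the marker counts do not compare the species. Distal nephron and collecting duct markers fell in 0 and 9 of 10 cases in Acomys and in 7 and 7 of 10 in mouse, and among podocyte and endothelial markers 0 were listed in Acomys, 1 fell on mouse day 2 and 2 rose on mouse day 5. The part of these cell markers in the protease values was not tested. The kidney origin shows in the high mean expression of nephron genes, up to a logCPM of 10.17 for the distal list in Acomys and 12.52 for the proximal list in mouse.

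**Figure D4:**
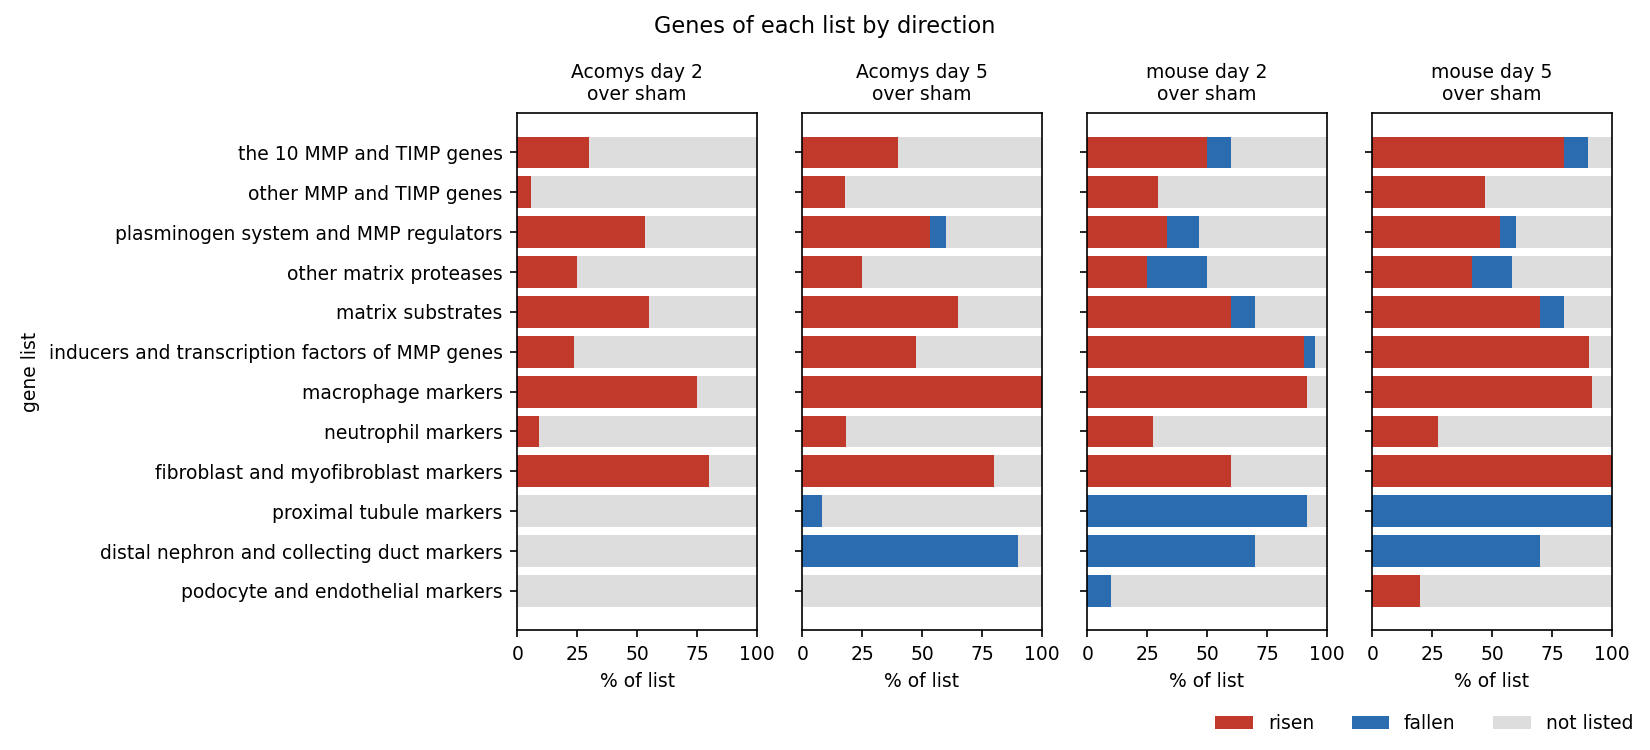
Share of each gene list (x axis, percent of the list) that rose (red), fell (blue) or was not listed (grey) in the 4 comparisons, Acomys on the left. Inducers of the family had 5 and 10 of 21 genes risen in Acomys and 19 and 19 in mouse, and proximal tubule markers 0 and 1 of 12 fallen in Acomys and 11 and 12 in mouse. Acomys had 1765 and 2500 listed entries in all and mouse 3915 and 5365, so these shares do not compare the species.

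The genes whose pattern lay closest to Mmp9, Mmp14 and Timp1 were sought among the 580 symbols listed in all 4 tables, by Euclidean distance over the 4 log2 fold changes. These 4 values share sham libraries within a species, and 553 of the 580 symbols rose in all 4 tables. Closest to Mmp14 were Gpr153 (distance 0.254), Adam12 (0.281) and C3ar1 (0.409), against a median distance of 2.16. Closest to Timp1 were C3 (0.731), Meltf (1.17) and Cxcl1 (1.56), against a median of 6.97. Closest to Mmp9 were Tmem59l (1.19), Inhbb (1.41) and Tmem173 (1.54), against a median of 4.04. C3, the central complement component, stood at 4.75 and 4.50 in Acomys and at 6.35 and 6.44 in mouse on days 2 and 5 in the authors' deposited tables.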

How the data were processed

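Kidney RNA of 18 libraries, 3 in each of 6 groups formed from the titles in the labels, was quantified with Salmon and compared with edgeR by the authors, on build mm9 for mouse, as the submitters' processing notes name them. The sources used here give no versions, filters, Acomys reference or library totals, and sequencing depth is therefore unknown. The authors deposited 4 tables headed, per the file headers, logFC (fold change), logCPM (mean expression) and FDR. The authors' deposited logFC and logCPM were read as log2 values, the base edgeR writes, because the headers do not state a base. The FDR in the deposited tables is an adjusted p-value under 0.05 in every entry. No gene was refitted, because the tables hold comparisons and not values per library. The direction comes from the names of the tables.

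Members were matched by symbol. Upper limits of standard errors, 95% intervals, species differences and gene list counts were computed with Python 3.11.15, pandas 2.3.3, NumPy 2.4.6 and SciPy 1.17.1. The members and 11 gene lists (150 genes) were chosen with earlier results of these data known. Named genes were all members, all listed family genes, up to 2 highest and 2 lowest genes of each other list in a table, and the 3 nearest patterns. Elane, Mpo, Col4a1 and Col4a2 were named besides. A gene of the regulator list is not reported here. In all 30 alternatives were tried. Promoters came from RefSeq on GRCm38.p6, a build other than the authors', and were matched by symbol.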

Additional observations from a re-analysis of the deposited data

How the results depend on the processing

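The counts of risen and fallen genes kept their side under all alternatives (FDR under 0.01, an absolute log2 change of at least 1, logCPM of at least 0, matching by Entrez ID) within 1.5 times, except the single fall on mouse day 2, Mmp13, for which the count was 0 at FDR under 0.01 and 0 at logCPM of at least 0. The rises on Acomys day 2 went from 3 to 2 at FDR under 0.01, where Mmp9 was no longer called. The species test called 25 symbols on day 2 and 36 on day 5. With standard errors rebuilt from ranks and 20000 assumed tests it called 39 and 55, with 1 of the 10 genes on day 5, Mmp2 (0 with 10000 assumed tests). With the t distribution, which also made the standard errors smaller, it called 103 and 149, with 1 of the 10 genes on day 2 and 2 on day 5. At a threshold of 0.01 it called 18 on day 5. Minus the median difference of all symbols, the day 5 difference of Mmp14 turned to 0.15. Choosing the Acomys locus of lowest FDR for a symbol left the calls at 25 on day 2 and 36 on day 5, with 0 of the 10 genes. The causes were not tested. Libraries could not be left out in turn without values per library. No paired analysis was possible because the tables hold comparisons between groups and no values per library.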

Other observations

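A list of 12 other genes for matrix-cutting enzymes held proteases and also Hpse, whose product is not a protease. Of these genes 3 rose and 0 fell on each Acomys day. In mouse 3 rose and 3 fell on day 2, and 5 rose and 2 fell on day 5, with Hpse among the rises on both days. Of all entries 89.9% and 78.6% rose in Acomys on days 2 and 5, and 58.3% and 60.9% in mouse. The meprin subunit genes Mep1a and Mep1b, brush border metalloproteinases of the proximal tubule, fell in mouse by 1.64 and 3.28 on day 2 and by 1.49 and 2.03 on day 5 in the authors' deposited tables, and were not listed in Acomys. Fap, a protease gene of activated fibroblasts, stood at 2.17 on day 2 and 2.36 on day 5 in Acomys and at 2.00 on mouse day 5 in the authors' deposited tables. Ctsk, the collagen-cutting cathepsin K gene, stood at 1.57 and 1.79 in Acomys and at 2.50 on mouse day 5 in the authors' deposited tables. Bmp1, which cuts the ends of procollagen, stood at 1.13 and 1.33 in Acomys and at 1.86 and 2.60 in mouse in the authors' deposited tables. The heparan sulfate cutting enzyme gene Hpse stood at 2.03 and 3.04 in mouse in the authors' deposited tables and was not listed in Acomys.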
